A study of Mus musculus with 4 samples.

Results

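The genes described here encode the Myc and Max network, a family of transcription factors that bind DNA in pairs. They are Myc, Mycn, Max, Mxd1, Mxd3, Mxd4, Mxi1, Mnt, Mga and Mlx, chosen by their gene symbols. Earlier results of these data were known when these genes and the gene lists below were chosen. All 10 were among the 24421 genes of the count files, and all 10 had counts in every library. They were measured by Illumina TruSeq sequencing of RNA from R1, an established line of mouse embryonic stem cells (ESCs), with 2 libraries of each of 2 states. Undiff is described in the study's methods as R1 cells kept in leukaemia inhibitory factor, the cytokine that sustains self-renewal of mouse ESCs, and as embryoid bodies in the labels. Day4 is embryoid bodies, which are floating aggregates of differentiating ESCs, grown for 4 days without that factor and for 4 more days in the presence of retinoic acid (RA), which cells make from vitamin A. The RA dose is given as 2 µM in the series' design text and as 2 mM in the labels of the samples. All libraries come from 1 cell line, with replicates that were grown and treated separately. Withdrawal of the cytokine, aggregation, time and RA cannot be told apart in this comparison, and neither can a change in the mix of cell types and a change of RNA within each cell.

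Max is the hub of the network. It pairs through its helix-loop-helix and leucine zipper with Myc or Mycn to activate genes for growth and ribosome production, and with the Mxd proteins, Mxi1, Mnt or Mga to repress. The pairs compete for Max and for the same DNA letters, CACGTG, known as the E-box. In ESCs, Myc and Mycn are known for their part in rapid growth and self-renewal, and Mxd genes are known to rise as cells leave the cycle. Mlx is the hub of a sister branch, which pairs with Mxd1, Mxd4, Mnt and the glucose-sensing factors Mlxip and Mlxipl.

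Because the network's own proteins read the E-box, the promoters of the genes were searched for it, on both strands, in windows of 250 bases before to 50 bases after the gene start in RefSeq (GRCm38.p6). Windows were at hand for 9 of the 10 genes, all but Myc, and 4 of the 9 held CACGTG, compared with 8.09% of the 27025 genes with a window. These were Mxd4, Mnt, Mlx and Max, whose stretches are shown 5′ to 3′ on the gene's own strand with the E-box in capitals. The stretches lie at chr5:34187884-34187960 (minus strand) for Mxd4, chr11:74830761-74830846 (plus strand) for Mnt, chr11:101087210-101087295 (plus strand) for Mlx and chr12:76962229-76962291 (minus strand) for Max.
Mxd4: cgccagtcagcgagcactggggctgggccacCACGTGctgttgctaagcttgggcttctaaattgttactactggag
Mnt: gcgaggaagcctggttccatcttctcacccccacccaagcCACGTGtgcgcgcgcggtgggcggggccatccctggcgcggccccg
Mlx: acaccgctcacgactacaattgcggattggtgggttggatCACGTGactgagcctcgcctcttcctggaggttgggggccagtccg
Max: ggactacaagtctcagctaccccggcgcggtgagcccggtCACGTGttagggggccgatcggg
The 6 letters began 219 bases before the RefSeq start of Mxd4, 123 before that of Mnt, 40 before that of Mlx and 3 before that of Max. In the annotation GENCODE vM21 Max starts at 76962201, downstream of the whole stretch shown. The last bases of its window were found in no GENCODE transcript of Max. The window of Mycn held no E-box and is shown for its 3 matches, in capitals, to letters read by E2F factors, the regulators of entry into S phase. It held TTTGGCGC, found in the windows of 0.585% of genes, and TTTCGCGC on the other strand, found in 0.374%. One of the matches to the first overlaps the second, so that the capitals form 2 runs, at chr12:12941957-12942059 (minus strand).
Mycn: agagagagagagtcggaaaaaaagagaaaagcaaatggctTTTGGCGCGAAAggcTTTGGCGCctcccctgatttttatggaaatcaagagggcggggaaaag
No window of the 9 genes matched, on either strand, the direct repeats known as DR5 and DR2, to which RA receptors bind, and these were found in 0.115% and 0.311% of all genes. A match describes letters only, and binding was not measured.

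Counts on genes summed to between 32099074 and 47730944 per library, and values are given as normalized counts, which are counts scaled by edgeR's TMM factors to a common library size. A gene was called a differentially expressed gene (DEG) with the study's thresholds: a mean of 5 or more normalized counts, a log2 fold change of 1 or more in either direction, and an adjusted p of 0.05 or less. The adjusted p is that of the quasi-likelihood test in edgeR, after Benjamini and Hochberg, over 19891 genes with counts, and SE stands for its standard error on the log2 scale. With 2 libraries against 2, an exact permutation test cannot go below p = 0.333, so that these p-values rest on the spread that edgeR estimates jointly over genes (a biological coefficient of variation of 3.66%). The labelled states were checked with 2 pluripotency factors. Pou5f1 had 31358 and 31984 normalized counts in Undiff and 142 and 131 in Day4, and Nanog had 8417 and 9053 in Undiff and 115 and 90.6 in Day4.

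Of the 10 genes, 6 were DEGs, or 60.0%, compared with 42.8% of all genes tested. The activators Myc and Mycn and the repressor Mga fell, 3 of 10 beside 20.6% of all genes. The repressors Mxd1, Mxd3 and Mxd4 rose, 3 of 10 beside 22.2% of all genes. Of the remaining 4, Mxi1 and Mnt were higher and Mlx was lower at an adjusted p of 0.05 or less by edgeR but short of the minimum fold change, while Max did not pass. Without a minimum fold change, 9 of the 10 genes and 75.6% of all genes passed. For all 10 genes both libraries of 1 state lay above both of the other, which was also so for 85.4% of all genes. Much of the transcriptome thus moved in this comparison, and counts of members are to be read against that background. The shares of all genes include 3419 genes with a mean under 5, which could not be DEGs. All 10 members averaged 5 or more, as did all genes of the lists below except 1 mesoderm marker. Among the 16472 genes that did so, 51.7% were DEGs, with 26.8% higher and 24.9% lower, a closer background for the members and lists.

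**Figure D1:**
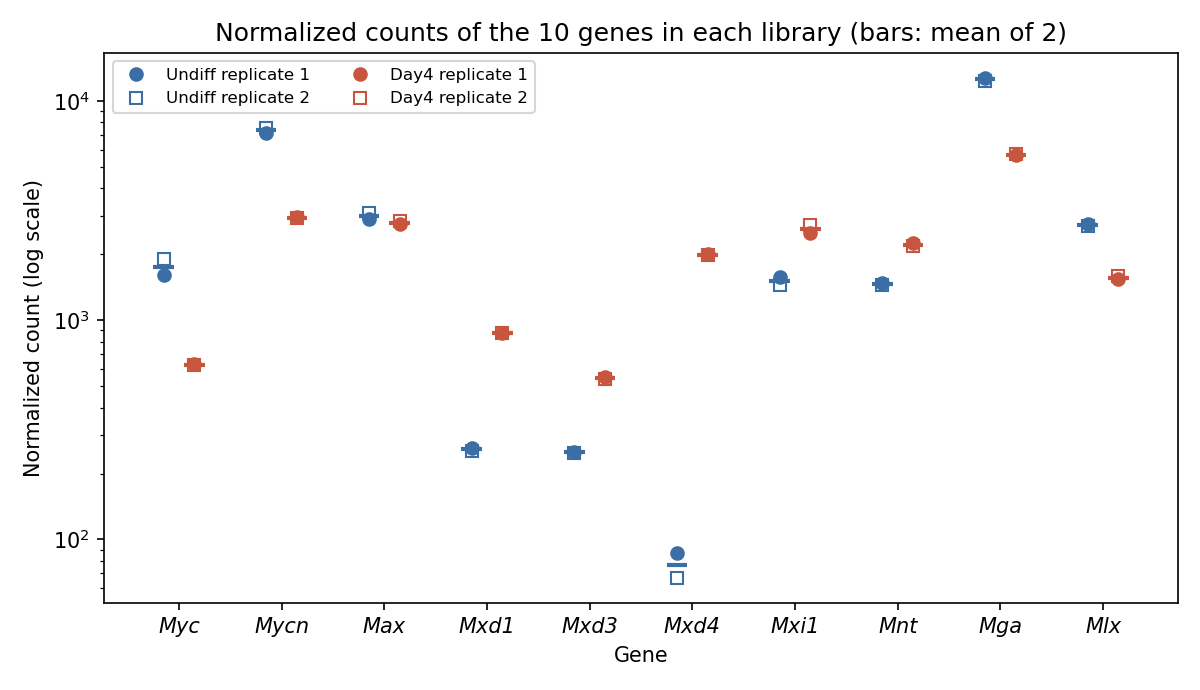
Normalized count (log axis) of each of the 10 genes in the 4 libraries, with circles for replicate 1, squares for replicate 2, and bars for the mean of each state. The Undiff points of Myc, Mycn, Mga and Mlx lie above those of Day4, the Day4 points of Mxd1, Mxd3, Mxd4, Mxi1 and Mnt lie above those of Undiff, and those of Max are nearly level.

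Both activators fell. Myc (chromosome 15, 61985391 to 61990374 of GRCm38, plus strand), the founding oncogene of the family, had 1614 and 1906 normalized counts in the Undiff libraries (replicates 1 and 2, the order used throughout) and 629 and 625 in those of Day4. The Day4 libraries were level and the Undiff libraries were apart, with a coefficient of variation of 11.7%, but both were far above Day4. The log2 fold change was -1.49 (SE 0.08, adjusted p = 9.0e-10 from edgeR), so that Day4 held 35.7% of the Undiff level.

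Mycn (chromosome 12, 12936093 to 12941914, minus strand), the form of Myc that is prominent in embryonic and neural progenitor cells, had 7187 and 7523 normalized counts in Undiff and 2967 and 2924 in Day4. The Undiff counts were more than those of any other member except Mga. The log2 fold change was -1.32 (SE 0.05, adjusted p = 9.2e-12 from edgeR), or 2.5-fold lower. Per kilobase of exon, the level of Mycn was 3.67 and 3.25 times that of Myc in the Undiff libraries and 3.89 and 3.86 times in the Day4 libraries. The 2 states did not overlap in this ratio (p = 0.333 in a two-sided exact permutation test, which 2 libraries against 2 cannot go below). The gap between them was smaller than the spread of the Undiff replicates. The 95% intervals of the fits, -1.66 to -1.31 for Myc and -1.42 to -1.22 for Mycn, overlapped.

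Max (chromosome 12, 76937269 to 76962201, minus strand), the common partner of Myc, Mycn and the repressors, moved least of the 10 genes. It had 2889 and 3098 normalized counts in Undiff and 2749 and 2830 in Day4. Both Day4 libraries lay just below both Undiff libraries, and the gap was smaller than the spread of the Undiff replicates. The log2 fold change was -0.10 (95% interval -0.21 to 0.01, adjusted p = 0.095 from edgeR), and among genes that averaged 5 or more normalized counts only 5.47% had a smaller absolute change. The adjusted p-value was sensitive to the Undiff libraries. It was 0.013 without replicate 1 (log2 fold change -0.15) and 0.39 without replicate 2 (log2 fold change -0.05).

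The 3 Mxd genes rose. They encode small proteins that recruit the Sin3 corepressor, with its histone deacetylases, to the E-box in place of Myc. Mxd4 (chromosome 5, 34173883 to 34187720, minus strand), one of those with an E-box in the promoter window shown above, had 86.5 and 67.0 normalized counts in Undiff and 2012 and 1982 in Day4. It was the lowest member in Undiff, on 83 and 56 raw counts, and its Day4 libraries were level. The rise was 25.8-fold, with log2 fold change 4.69 (SE 0.10, adjusted p = 6.8e-14 from edgeR). Of the genes with a mean of at least 5, 91.4% had a smaller absolute change. Mxd4 shares 514 exonic bases with the antisense gene Gm42846, which was not counted, and the study's methods state strand-specific counting only for its direct RNA libraries. Without strand, fragments of Mxd4 and of Gm42846 there cannot be told apart.

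Mxd1 (chromosome 6, 86647042 to 86669161, minus strand), which was first known as Mad and rises as many cell types mature, had 262 and 254 normalized counts in Undiff and 872 and 879 in Day4. It rose 3.40-fold, with log2 fold change 1.76 (SE 0.08, adjusted p = 1.5e-10 from edgeR). Mxd3 (chromosome 13, 55325168 to 55329823, minus strand), the Mxd gene that is known for expression in dividing cells in S phase, had 250 and 249 normalized counts in Undiff and 551 and 539 in Day4. Its rise of 2.18-fold, with log2 fold change 1.12 (SE 0.09, adjusted p = 4.9e-08 from edgeR), had an interval from 0.93 to 1.31 that reached below the minimum fold change. Mxd3 shares 105 exonic bases with Prelid1 on the opposite strand, which, unlike Gm42846, was itself counted. Without strand, the gene to which fragments there belong is uncertain too. The replicates of Mxd1 and Mxd3 had a coefficient of variation of at most 2.17% in either state, and the intervals of the 3 Mxd genes did not overlap one another.

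Mxi1 and Mnt were also higher in Day4, by less than the minimum fold change. Mxi1 (chromosome 19, 53310518 to 53375810, plus strand), also known as Mad2 and an Mxd protein in all but name, had 1576 and 1457 normalized counts in Undiff and 2510 and 2726 in Day4. The log2 fold change was 0.79 (SE 0.06, adjusted p = 4.1e-08 from edgeR), or 1.73-fold. Mxi1 shares 194 exonic bases with Gm10197, also on the opposite strand and not counted. Mnt (chromosome 11, 74830920 to 74845725, plus strand), a larger repressor that is present in dividing and resting cells alike and opposes Myc in both, had 1483 and 1455 normalized counts in Undiff and 2247 and 2177 in Day4. The log2 fold change was 0.59 (SE 0.05, adjusted p = 2.1e-07 from edgeR), or 1.5-fold. For both genes the states were apart by several times the spread of the replicates.

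Mga and Mlx went the other way from the Mxd genes. Mga (chromosome 2, 119897228 to 119969581, plus strand) encodes a very large repressor with a T-box as well as a helix-loop-helix, and joins Max to the polycomb complex PRC1.6. It had 12762 and 12394 normalized counts in Undiff and 5661 and 5747 in Day4. The coefficient of variation of the replicates was at most 2.07% in either state, and Day4 held 45.4% of the Undiff level (log2 fold change -1.14, SE 0.04, adjusted p = 1.4e-11 from edgeR). Mlx (chromosome 11, 101087277 to 101092207, plus strand) had 2742 and 2704 normalized counts in Undiff and 1537 and 1587 in Day4, with log2 fold change -0.80 (SE 0.05, adjusted p = 5.4e-09 from edgeR). That is 57.4% of the Undiff level, under the minimum fold change. Mlx shares 385 exonic bases with Psmc3ip on the opposite strand, with the same uncertainty as Mxd3.

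**Figure D2:**
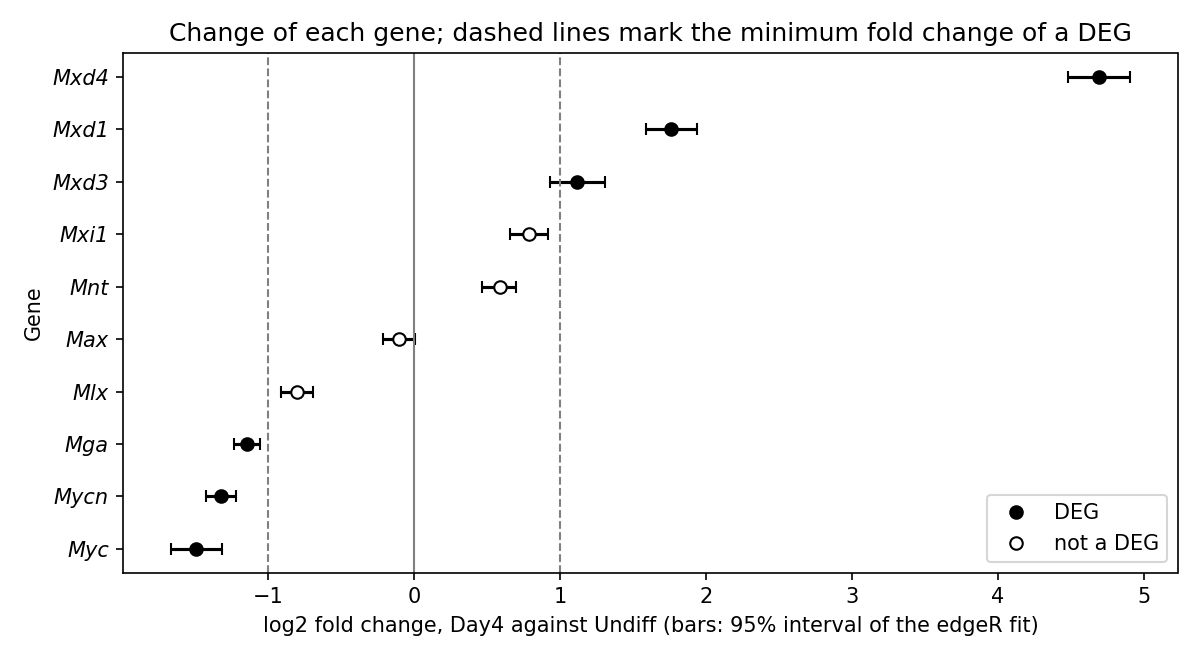
Log2 fold change of Day4 against Undiff for each of the 10 genes, with its 95% interval from the edgeR fit, filled where the gene was a DEG, and dashed lines at the minimum fold change. Mxd4 stands alone at 4.69, the other genes lie between -1.49 and 1.76, and the interval of Max includes 0.

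Levels of different genes were compared per kilobase of exon, as normalized counts divided by the length of the union of a gene's exons in GENCODE vM21. In Undiff, Mycn was the highest of the 10 genes, at 2232 ± 71.9 per kilobase (SD, n = 2), followed by Mlx at 1362 ± 13.3, Max at 832 ± 41.1, Mga at 820 ± 17.0 and Myc at 648 ± 76.0. With this length, Max and Mga did not differ beyond their spread. Mnt followed at 317.5 ± 4.27, Mxi1 at 222 ± 12.3, Mxd3 at 105 ± 0.365, Mxd1 at 36.4 ± 0.790 and Mxd4 at 9.05 ± 1.62. The 5 highest genes in Undiff thus held both activators, and the lowest 3 were the Mxd genes.

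In Day4, Mycn was still the highest, at 894 ± 9.07 per kilobase (SD, n = 2), and Mlx at 781 ± 17.8 and Max at 775 ± 15.8 overlapped. Mnt at 478 ± 10.6 and Mxi1 at 384 ± 22.4 came next, and Mxi1 overlapped with Mga at 372 ± 3.96. Mxd4 at 235 ± 2.53 lay just above Myc at 231 ± 1.01, which overlapped with Mxd3 at 230 ± 3.44, and Mxd1 was lowest at 124 ± 0.685. Levels per kilobase depend on the transcript that is used. With the longest transcript in place of the union of exons, the level in Undiff was 1541 for Max, 55.2 for Mxd1 and 16.6 for Mxd4, each over 1.5 times the value above, and in Day4 Max, at 1437, was above Mycn, at 1102. The order in Day4 also turned for Mxi1, at 519.9, above Mnt, at 482.0, for Mxd4, at 431.5, above Mga, at 409.4, and for Mxd3, at 312.7, above Myc, at 268.1. With the longest transcript, Max in Undiff lay above Mlx, at 1386, and above Mga, at 902.9, and in Day4 above Mlx, at 794.8. The order of Max, Mlx and Mga thus depends on the length used.

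The 8 members that pair with Max (Myc, Mycn, Mxd1, Mxd3, Mxd4, Mxi1, Mnt and Mga) were then set against each other within each library, as shares of their summed level per kilobase. Myc and Mycn together made up 64.4% and 66.8% in the Undiff libraries and 38.4% and 37.9% in the Day4 libraries. The 5 repressors Mxd1, Mxd3, Mxd4, Mxi1 and Mnt made up 16.3% and 15.1% in Undiff and 49.1% and 49.4% in Day4. RNA of Myc and Mycn was thus in excess of that of these 5 repressors in Undiff and below it in Day4. The ratio of the 2 groups went from 3.94 and 4.41 to 0.782 and 0.768, with no overlap (p = 0.333 in the same exact permutation test). Mga fell from 19.3% and 18.1% to 12.5% and 12.7%.

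Within the repressor share, Mxd4 went from 0.236% and 0.177% to 8.05% and 7.92%, and Mnt went from 7.43% and 7.04% to 16.5% and 16%. Mnt was the largest share of the 5 in Day4 with the union of exons, but with the longest transcript Mxi1, at 13.4% and 14.6%, was above Mnt, at 13.2% and 12.8%. The summed level of the 8 partners was 4311 and 4469 per kilobase in Undiff and 2947 and 2948 in Day4, or 5.37 and 5.19 times the level of Max in Undiff and 3.86 and 3.75 times in Day4. These are shares of RNA, and the amounts of the proteins and of the pairs they form were not measured. With the longest transcript as the length, the ratio of Myc and Mycn to the 5 repressors was 3.95 and 4.44 in Undiff. It was 0.716 and 0.701 in Day4. The 8 partners then summed to 3.46 and 3.35 times the level of Max in Undiff and 2.62 and 2.55 times in Day4. Mycl, a further Myc gene described below, was left out of these ratios and sums with either length. With the union of exons, Mycl had 266.7 per kilobase in Undiff and 265.5 in Day4, where Myc had 230.7. Adding Mycl to Myc and Mycn would raise the ratio in both states, and that ratio was not calculated. The shift is thus given for Myc and Mycn only.

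**Figure D3:**
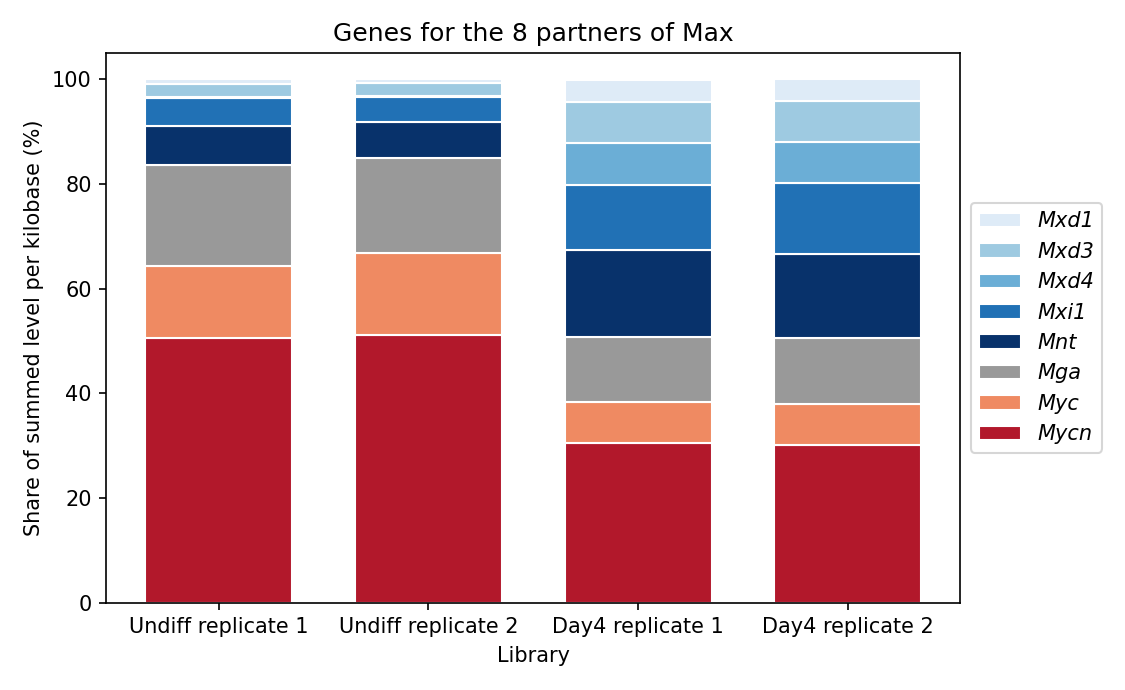
Share (%) of each of the 8 members whose proteins pair with Max in their summed level per kilobase of exon, as stacked bars. Bars are for the 4 libraries, with activators in red, Mga in grey and the other repressors in blue. Mycl is not included. The activators take 64.4% and 66.8% of the Undiff bars and 38.4% and 37.9% of the Day4 bars.

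The wider family was uneven. Mycl, the third Myc gene, was level, with 1103 and 1052 normalized counts in Undiff and 1036 and 1108 in Day4 and overlapping ranges (95% interval of the log2 fold change -0.14 to 0.13, adjusted p = 0.95 from edgeR). Bmyc, a short rodent relative of Myc without the DNA-binding end, rose from 113 and 77.8 to 435 and 369 normalized counts, with log2 fold change 2.05 (adjusted p = 3.1e-08 from edgeR). Bmyc shares 617 exonic bases with the antisense gene A230005M16Rik, which was not counted, so that its value is uncertain. Of the glucose-sensing partners of Mlx, Mlxipl (also called ChREBP) fell from 688 and 672 to 24.0 and 23.0 normalized counts, with log2 fold change -4.85 (SE 0.13, adjusted p = 1.1e-12 from edgeR). Its relative Mlxip (MondoA) was higher in Day4, at 2539 and 2652 against 1718 and 1812, a log2 fold change of 0.56 that is under the minimum. Of 2 arrestin-family targets of these factors, Txnip fell from 14042 and 12841 to 5952 and 5616 normalized counts (log2 fold change -1.22, adjusted p = 6.1e-11 from edgeR). Arrdc4 was at 1939 and 1771 in Undiff and 2355 and 2220 in Day4 (log2 fold change 0.30, not a DEG). Txnip shares 606 exonic bases with Gm15441 on the opposite strand, which makes its count uncertain.

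Proteins that set the lifetime of Myc were followed as a list of 12 genes. Of these, 2 rose (16.7%, beside 22.2% of all genes) and 4 fell (33.3%, beside 20.6%) as DEGs, with a median log2 fold change of -0.38 beside -0.03 over all genes tested. Trim32, a ubiquitin ligase, rose from 798 and 780 to 2874 and 2875 normalized counts (log2 fold change 1.86). Gsk3b, the kinase that marks Myc for breakdown, rose from 1905 and 2132 to 6398 and 6339 (log2 fold change 1.66). Usp28, a ubiquitin protease that protects Myc, fell from 17575 and 16015 to 1584 and 1602 (log2 fold change -3.40). Cip2a, listed as C330027C09Rik, which protects Myc from a phosphatase, fell from 7050 and 7509 to 2469 and 2468 (log2 fold change -1.56). Fbxw7, the ligase subunit that recognizes marked Myc, is added here after its values were seen. It had 1089 and 1218 normalized counts in Undiff and 1053 and 1146 in Day4, with overlapping ranges (adjusted p = 0.43 from edgeR).

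Cofactors were followed as a pair of lists. Of 12 genes for coactivators of Myc and for its partner Miz1 (Zbtb17), 0 were DEGs by edgeR, beside 42.8% of all genes. An adjusted p of 0.05 or less was found for 10 of the 12, beside 75.6% of all genes. It was not found for 2 of the 12, beside 2163 of the 16472 genes with a mean of 5 or more. An unadjusted p under 0.05 was found for 11, beside 15303 of the 19891 genes tested. DESeq2 called 1 of the 12, Wdr5, whose log2 fold change was -0.97 in edgeR and -1.01 in DESeq2. Of 10 genes for the corepressors used by Mxd and Mnt, mostly of the Sin3 complex, 1 was a DEG by edgeR. This was Sap18, a Sin3-associated protein, which rose from 447 and 436 to 950 and 894 normalized counts (log2 fold change 1.06, adjusted p = 1.5e-08 from edgeR). A further 3 were higher and 4 lower at an adjusted p of 0.05 or less by edgeR with a smaller change. Among the lower ones, Sin3a went from 11182 and 10994 to 5408 and 5789 (log2 fold change -0.98 in edgeR). DESeq2 called it a DEG, at -1.02. The medians of the 2 lists were -0.45 and -0.01.

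Genes that Myc is known to activate were lower in Day4 as a group. Of a list of 62, mostly genes for ribosome production, nucleotide and polyamine synthesis and translation, 43 fell (69.4%, beside 20.6% of all genes) and 1 rose, and a further 16 were lower at an adjusted p of 0.05 or less by edgeR with a smaller change. The median log2 fold change was -1.22. Rrp12, a ribosome assembly factor, fell from 5086 and 5368 to 1023 and 1071 normalized counts (log2 fold change -2.32, adjusted p = 2.0e-13 from edgeR). Odc1, the rate-limiting enzyme of polyamine synthesis and a classic Myc target, fell from 37956 and 38616 to 8298 and 8690 (log2 fold change -2.17). The exception was Cdk4, the G1 kinase, which rose from 12931 and 12834 to 29413 and 28985 (log2 fold change 1.18, adjusted p = 3.5e-12 from edgeR). Bysl, which acts in assembly of the small ribosomal subunit, had the smallest fall among the DEGs, from 3302 and 3531 to 1727 and 1655 (log2 fold change -1.02), and it was not a DEG with library totals as the scaling or without Undiff replicate 2. The proliferation markers moved with this list. Their summed level was between 127301 and 130128 normalized counts in Undiff and between 57386 and 60683 in Day4. All 6 were lower, and 2 of the 6 fell as DEGs (33.3%, beside 20.6% of all genes). The part of these markers in the result was not tested.

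Of 7 genes that Myc is known to repress, 3 rose (42.9%, beside 22.2% of all genes) and 1 fell (14.3%, beside 20.6%), with a median log2 fold change of 0.94. Cdkn2b, a CDK inhibitor, was short of the minimum at 0.94 and was a DEG with library totals as the scaling and without Undiff replicate 1. Gas1, a membrane protein of arrested cells, rose from 59.4 and 65.8 to 12880 and 11390 normalized counts (log2 fold change 7.60). Cdkn1c, the CDK inhibitor p57, rose from 616 and 585 to 12785 and 11156 (log2 fold change 4.31), and Ndrg2 from 1856 and 1438 to 4135 and 3718 (log2 fold change 1.25). Gadd45a, a stress response gene, went against the list and fell from 1859 and 1926 to 454 and 561 (log2 fold change -1.88).

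**Figure D4:**
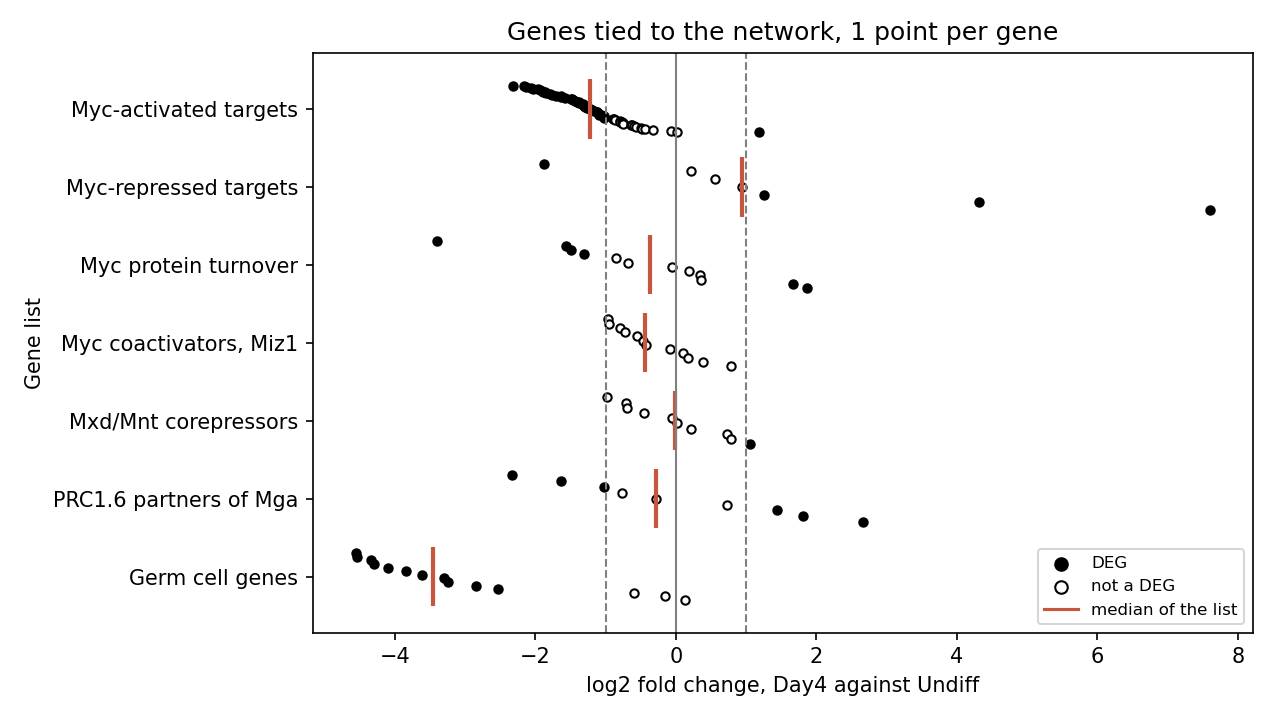
Log2 fold change of Day4 against Undiff for the genes of 7 lists tied to the network, 1 point per gene, filled where the gene was a DEG, with the median of each list as a red bar. Of the 62 Myc-activated genes, 43 are DEGs on the lower side and 1 on the higher, while the coactivators and corepressors lie mostly between the dashed lines at the minimum fold change.

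The partners of Mga in PRC1.6, a complex that keeps germ cell genes silent in ESCs, changed in both directions. Of 9 genes, 3 rose (33.3%, beside 22.2% of all genes) and 3 fell (33.3%, beside 20.6%), and the median log2 fold change was -0.29. The core subunits L3mbtl2 and Pcgf6, which define this form of the complex, fell with Mga. L3mbtl2 went from 7262 and 7306 to 1447 and 1455 normalized counts (log2 fold change -2.33, adjusted p = 5.2e-14 from edgeR), and Pcgf6 from 3562 and 3713 to 1190 and 1155 (log2 fold change -1.63). Among subunits shared with other polycomb complexes, Yaf2 rose from 402 and 404 to 2570 and 2546 (log2 fold change 2.66) and Ring1 from 293 and 246 to 983 and 919 (log2 fold change 1.81). Rybp, the relative of Yaf2 and also shared, fell from 4638 and 4829 to 2341 and 2293 (log2 fold change -1.03), and was not a DEG with library totals as the scaling. E2f6, the DNA-binding E2F of PRC1.6 itself, rose from 1069 and 1052 to 2922 and 2824 (log2 fold change 1.44).

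The germ cell genes that Max, Mga and PRC1.6 are known to hold silent were lower in Day4. Of a list of 14, 11 fell (78.6%, beside 20.6% of all genes), and Stra8, Zcwpw1 and Tdrkh were not DEGs. The median log2 fold change was -3.46. Tex11, a gene of meiosis, fell from 474 and 493 to 14.6 and 24.6 normalized counts (log2 fold change -4.56). Tex101, a sperm surface protein, went from 55.2 and 52.6 to 1.0 and 3.1, near the floor of counting. Stag3, a cohesin of meiosis, fell from 2862 and 2661 to 450 and 494 (log2 fold change -2.54), and Dazl, an RNA-binding protein of germ cells, from 168 and 170 to 29.2 and 19.2 (log2 fold change -2.84). Of the 3 that were not DEGs, Stra8 overlapped between the states, at 126 and 117 in Undiff and 149 and 79.1 in Day4, and Tdrkh had 366 and 379 in Undiff and 399 and 413 in Day4.

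For Myc and Mycn, the genes with the most similar profile were sought among the 12349 genes with a mean of at least 100, by the distance between centred log2 values over the 4 libraries. For Myc these were Tprn (distance 0.0506), Epb4.1l4aos (0.0534) and Ncl (0.0664), the last of which encodes the nucleolar protein nucleolin and is on the list of Myc targets. For Mycn they were Las1l (0.0108), a ribosome maturation factor on the same list, Usp15 (0.0145) and Set (0.0226). Within a distance of 0.2 there were 210 genes for Myc and 511 for Mycn, so that many genes share either profile over these 4 libraries.

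Markers of several cell types changed between the same libraries, in which 22.2% of all genes rose and 20.6% fell as DEGs. All 8 pluripotency markers fell, from a summed level of between 126940 and 129249 normalized counts in Undiff to between 670 and 739 in Day4, and each was above 3 counts per library. All 6 endoderm markers rose, from between 254 and 308 to between 20120 and 20404, and Afp had 0 counts in both Undiff libraries. Nearly all of the Day4 sum came from Gata4 and Gata6, with Day4 means of 9621 and 10321. The Day4 means of Sox17, Foxa2, Afp and Ttr were 151.5, 55.9, 61.5 and 51.8. Of the 6 fibroblast markers, 4 rose and 2 fell, with sums of between 2301 and 2483 in Undiff and between 56735 and 62257 in Day4. Neural markers were mixed, with 2 DEGs higher and 3 lower of 6 and sums of between 5150 and 5170 in Undiff and between 5384 and 5926 in Day4. Mesoderm and heart markers were also mixed, with 2 higher and 3 lower of 6. Their sums were between 831 and 865 in Undiff and between 2139 and 2193 in Day4. Hand2 and Tbx5 rose, from Undiff means of 3.96 and 0.521 to Day4 means of 1137 and 974, while T, Hand1 and Myh6 fell. T and Mesp1, which mark early mesoderm, had at most 3 counts in either Day4 library. The part of these marker changes in the results for the network was not tested.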

How the data were processed

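RNA of 2 Undiff and 2 Day4 cultures was sequenced by the authors as Illumina TruSeq libraries. Reads were trimmed with cutadapt, aligned to mm10 with STAR (version 2.4.2a per the labels), and counted on genes with htseq-count. The deposited values are raw counts of uniquely aligned fragments per gene symbol. Lines that name no gene held between 9.41% and 15.1% of fragments and were left out.

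Counts were scaled by TMM and tested with edgeR 4.0.16 in R 4.3.3 (glmQLFit with its newer variance model, glmQLFTest), Day4 against Undiff with no covariate, over 19891 genes that had counts. Standard errors are the log2 fold change divided by the square root of F. The script was tested on simulated data. DESeq2 1.42.0, other scalings, a filter (filterByExpr), a replicate block, thinning to the smallest library and leaving out each library were alternatives. The older variance model of edgeR was added after the data were seen. Members and gene lists were chosen with earlier results of these data known. The lists were written from general knowledge.

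Named genes are the 10 members, the 6 relatives, the 2 highest and 2 lowest log2 fold changes among DEGs of each list, the 3 closest profiles to Myc and to Mycn, Pou5f1 and Nanog. Fbxw7, Wdr5, Sin3a, E2f6, Rybp, Cdkn2b, genes whose call changed with the setting, the germ cell genes that were not DEGs, and single markers were named after their values were seen. Positions and lengths are from GENCODE vM21 (GRCm38, the assembly of mm10), matched by symbol, and promoters from RefSeq (GRCm38.p6). The ranges and intervals cover these cultures of 1 line only.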

Additional observations from a re-analysis of the deposited data

How the results depend on the processing

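All 10 members kept their direction and their side of the DEG thresholds under the 12 alternatives, with log2 fold changes between -1.60 and -1.36 for Myc, -1.36 and -1.25 for Mycn, and 4.53 and 4.89 for Mxd4. The adjusted p-value of Max was at most 0.05 under 4 of the 12 alternatives and above it under the others. The number of DEGs over all genes was 8521 and ranged from 8306 to 8410 with each library left out. With DESeq2 it was 8114, with library totals 8549 and with filterByExpr 8255. With the replicate number as a block it was 8515, and the block changed no call named here. Same-numbered libraries did not deviate together across genes taken as a whole (r = 0.0018 across 12349 genes, which are not independent). With 2 pairs, this cannot tell whether same-numbered libraries shared a batch that acted on some genes.

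The coactivators held 1 DEG lower in Day4 (Wdr5), and the corepressors 1 (Sin3a), with DESeq2 with or without shrinkage, with DESeq2 size factors in edgeR, with filterByExpr and with thinning, compared with 0 of each in edgeR with TMM. With each library left out the numbers were between 0 and 2 for the coactivators and between 0 and 1 for the corepressors. These genes lie next to the minimum fold change. Mycl, level with TMM, had a log2 fold change of 0.06 with library totals, 0.03 without Undiff replicate 1 and 0.04 without Day4 replicate 1, and between -0.09 and 0.04 with each library left out, and none of these passed. Bysl, Grwd1, Hspe1, Eif4a1 and Rybp were no longer DEGs with library totals, and Bysl and Hspe1 without Undiff replicate 2. Cdkn2b was a DEG with library totals and without Undiff replicate 1.

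With the longest transcript as the length, levels per kilobase in Undiff and Day4 were 752.8 and 268.1 for Myc, 2751 and 1102 for Mycn, 1541 and 1437 for Max, 55.2 and 187.7 for Mxd1, 143.2 and 312.7 for Mxd3, 16.6 and 431.5 for Mxd4, 301.1 and 519.9 for Mxi1, 320.0 and 482.0 for Mnt and 902.9 and 409.4 for Mga, and 1386 for Mlx in Undiff. The shorter length gives the higher level. With 2 libraries per state, the spread is poorly known for any single gene, and the lowest count behind a member's value is 56.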
